A study of Mus musculus with 10 samples.

Results

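C/D box small nucleolar RNA (snoRNA) genes were described in the RNA-seq libraries of E14, a mouse embryonic stem cell line. The members were the gene records whose GENCODE vM21 symbol is Snord followed by a digit, which gave 99 of the 55487 genes in the tables. They carried 98 distinct symbols, because Snord80 has 2 overlapping records, and all but Snord43, annotated as a miRNA, were typed as snoRNA. The series holds 10 samples of this line in 6 groups, made to map R-loops, which are stretches of RNA paired with one DNA strand. None of the 7 samples with R-loop maps entered this work, and every value below comes from the 3 replicates of the RNA-seq group. These cells were untreated and carried no stated genetic change. They were grown in DMEM with 15% fetal bovine serum, LIF, a GSK inhibitor at 3 µM and a MEK1/2 inhibitor at 1 µM. Total RNA was taken with Trizol, digested with DNase, depleted of rRNA with FastSelect and made into directional libraries, with selection of DNA fragments by size. With 1 group there was no difference between conditions to test, and nothing in the labels says whether the replicates came from separate cultures, so their spread may be technical.

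C/D box snoRNAs are short nucleolar RNAs named for a C box near the 5′ end and a D box near the 3′ end. These boxes are bound by the proteins fibrillarin, Nop56, Nop58 and Snu13, and the bases upstream of a D box pair with ribosomal RNA and direct fibrillarin to methylate it. A few members act in the cleavage or other modification of the ribosomal precursor instead. In mammals most are released from introns of host genes, often genes for ribosomal proteins, and a few have promoters of their own. Embryonic stem cells divide fast and make ribosomes at a high rate.

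The sequences below are 4 of the 5 members with the highest levels, followed by sets that the results turn on. Each is the GENCODE vM21 transcript on GRCm38, 5′ to 3′, in lower case, with TGATGA in the first 20 bases (the C box motif) and the last CTGA in the final 20 bases (the D box motif) in capitals.
Snord17: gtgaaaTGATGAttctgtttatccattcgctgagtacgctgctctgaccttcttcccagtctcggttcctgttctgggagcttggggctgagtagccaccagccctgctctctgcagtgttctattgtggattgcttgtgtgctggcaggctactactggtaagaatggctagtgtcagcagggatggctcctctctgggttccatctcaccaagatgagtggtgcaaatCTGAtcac
Snord15a: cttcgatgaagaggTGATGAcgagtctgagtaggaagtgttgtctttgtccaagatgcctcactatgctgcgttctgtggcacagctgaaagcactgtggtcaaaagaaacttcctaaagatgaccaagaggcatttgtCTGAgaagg
Snord16a: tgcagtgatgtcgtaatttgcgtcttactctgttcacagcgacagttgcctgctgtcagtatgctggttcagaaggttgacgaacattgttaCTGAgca
Snord118: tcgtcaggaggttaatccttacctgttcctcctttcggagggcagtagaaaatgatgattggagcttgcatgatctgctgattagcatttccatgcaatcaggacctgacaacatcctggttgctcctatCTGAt
Snord17 lay at chr2:144265979-144266216 (minus strand), Snord15a at chr7:99482785-99482932 (minus strand), Snord16a at chr9:64175423-64175521 (plus strand) and Snord118 at chr11:69073427-69073561 (plus strand). Snord17, Snord15a and Snord16a lay within introns of Snx5, Rps3 and Rpl4, and Snord118 lay in no other gene on its strand. Among these 4, Snord16a and Snord118 held no TGATGA in the first 20 bases.

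The next set comes from 1 host gene, 2410006H16Rik on chromosome 11. Its 3 members have the same annotated length of 72 nt but different counts.
Snord49a: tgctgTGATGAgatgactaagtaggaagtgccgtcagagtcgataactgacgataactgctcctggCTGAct
Snord49b: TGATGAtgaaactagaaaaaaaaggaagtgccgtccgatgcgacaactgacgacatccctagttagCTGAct
Snord65: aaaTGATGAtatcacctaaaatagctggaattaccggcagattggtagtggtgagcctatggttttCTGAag
They lay at chr11:62603450-62603521 (plus strand), chr11:62603079-62603150 (plus strand) and chr11:62604515-62604586 (plus strand). The set from Rpl13a on chromosome 7 is shown for the same reason, with Snord32a at chr7:45127382-45127464 (minus strand), Snord33 at chr7:45126864-45126947 (minus strand) and Snord34 at chr7:45126601-45126670 (minus strand).
Snord32a: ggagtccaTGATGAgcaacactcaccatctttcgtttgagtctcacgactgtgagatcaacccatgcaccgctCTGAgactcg
Snord33: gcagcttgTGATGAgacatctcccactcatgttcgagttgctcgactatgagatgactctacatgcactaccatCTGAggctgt
Snord34: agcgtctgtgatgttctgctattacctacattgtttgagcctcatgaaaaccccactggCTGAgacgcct
The members that follow are near copies within Hspa8 on chromosome 9, at chr9:40803583-40803668 (plus strand) and chr9:40803995-40804080 (plus strand).
Snord14c: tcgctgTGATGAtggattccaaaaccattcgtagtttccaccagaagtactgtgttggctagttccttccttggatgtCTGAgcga
Snord14d: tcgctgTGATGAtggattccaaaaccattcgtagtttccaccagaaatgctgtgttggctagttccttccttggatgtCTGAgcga
The last 3 are 2 short members with counts but a deposited length-scaled value of 0, Snord100 (chr10:23785750-23785823 (minus strand), in Rps12) and Snord104 (chr11:106500993-106501062 (plus strand), in no host), and 1 of the imprinted copies without counts, Snord116l1 (chr7:59894620-59894713 (minus strand), in Snhg14).
Snord100: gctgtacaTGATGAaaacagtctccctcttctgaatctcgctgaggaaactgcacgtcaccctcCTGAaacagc
Snord104: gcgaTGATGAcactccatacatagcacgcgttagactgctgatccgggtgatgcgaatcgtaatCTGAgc
Snord116l1: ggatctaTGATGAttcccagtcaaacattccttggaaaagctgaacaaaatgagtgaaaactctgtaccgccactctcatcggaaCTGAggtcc

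Estimated counts summed to 11420425 in replicate 1, 6467405 in replicate 2 and 5787357 in replicate 3. Levels below are CPM, the counts scaled to the same total in every library, which take no account of length. A floor of 3 counts corresponded to 0.263, 0.464 and 0.518 CPM. The cell type label was checked against markers: the stem cell genes Pou5f1, Nanog and Sox2 had 511, 1063 and 177 CPM as means, the lineage genes T, Sox17, Gata6, Pax6 and Cdx2 had means between 0.0515 and 0.403 CPM, and the fibroblast genes Col3a1 and Postn had 0 counts. Thy1 was the highest of 5 fibroblast genes at 3.46 ± 1.35 CPM (SD, n = 3).

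The 99 members together held 328, 377 and 735 CPM in replicates 1, 2 and 3 (Wilson 95% intervals 318 to 339, 362 to 392 and 713 to 757, which cover counting error only). Their mean was 480 ± 222 CPM (SD, n = 3). Replicate 3 lay well above the other two, and without Snord13 the sums were 266, 319 and 536 CPM. H/ACA box genes (Snora), the other class of snoRNA, summed to 2578 ± 797 CPM (SD, n = 3) over 42 genes. These sums do not compare the classes, because the C/D box U3 genes are named Rnu3 and are not among the members. A single Rnu3b1 record had a mean of 3216 CPM. Length differed as well, with Snora genes of 121 to 205 nt and members of 64 to 238 nt (median 84). At least 3 counts in every replicate, called detected below, were found for 23 members. A further 26 had some counts without meeting that rule, and 50 had 0 counts in all 3 libraries, which does not show that these RNAs were absent. Of the detected members, 11 were overlapped by an annotated exon of another gene on the same strand, mostly a transcript of the host. The same 11 members had estimated counts that were not whole numbers (tolerance 0.005) in some replicate, as an estimator that divides reads among records gives, so their values are uncertain. Such an exon overlapped 41 of the 99 members, and low or 0 counts of the undetected ones among them are uncertain as well.

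Counts were concentrated in few members, the 10 highest of which held 89.1%, 91.1% and 88.3% of all Snord counts. Snord13 (U13), which guides acetylation of 18S rRNA, was highest with 709, 374 and 1153 counts in replicates 1, 2 and 3, or 62.1, 57.8 and 199 CPM. Its mean was 106 ± 80.4 CPM (SD, n = 3), and the high SD came from replicate 3, which was over 3 times as high as either other library. Snord17, the longest member at 238 nt, had 50.2, 79.5 and 71.9 CPM (mean 67.2 ± 15.2, SD, n = 3). It was the one detected member in which replicate 3 was not the highest in CPM, although TMM scaling brought replicates 2 and 3 level at 77.1 and 77.5. The U15 gene Snord15a, in Rps3, had 40.5, 59.1 and 73.3 CPM (mean 57.6 ± 16.5, SD, n = 3). The U16 gene Snord16a, in Rpl4, had 38.7, 40.0 and 69.96 CPM (mean 49.6 ± 17.7, SD, n = 3). Its values were estimated beside an exon of an Rpl4 transcript that overlaps it. Snord17 and Snord15a each exceeded Snord16a in all 3 libraries, while Snord17 was above Snord15a in replicates 1 and 2 and below it in replicate 3.

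The next members by level were Snord118 at 28.0, 38.0 and 53.9 CPM and Snord15b, the second U15 copy of Rps3, at 24.2, 26.1 and 53.4 CPM. Snord32a had 15.0, 8.97 and 45.8 CPM and Snord83b, in Rpl3, had 11.2, 12.7 and 30.1 CPM. In both, replicate 3 stood clear above the others. Snord100 had 11.3, 8.96 and 29.9 CPM, and Snord104 had 11.2, 12.1 and 21.3 CPM. The means from Snord83b to Snord104 (17.98 ± 10.5, 16.7 ± 11.5 and 14.8 ± 5.57 CPM, SD, n = 3) differed by less than the spread of any of the 3. Snord49a followed at 12.1 ± 5.88 CPM (SD, n = 3), and below it there was a step to Snord33 at 5.53 ± 3.62 CPM (SD, n = 3). The remaining detected members, from Snord49b down to Snord68, had means between 0.689 and 5.02 CPM. Scaled to annotated length, the order by mean CPM per 100 nt was led by Snord13 (102), Snord16a (50.1), Snord15a (38.9), Snord118 (29.6), Snord17 (28.2) and Snord32a (28.0), so the shorter members moved up.

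**Figure D1:**
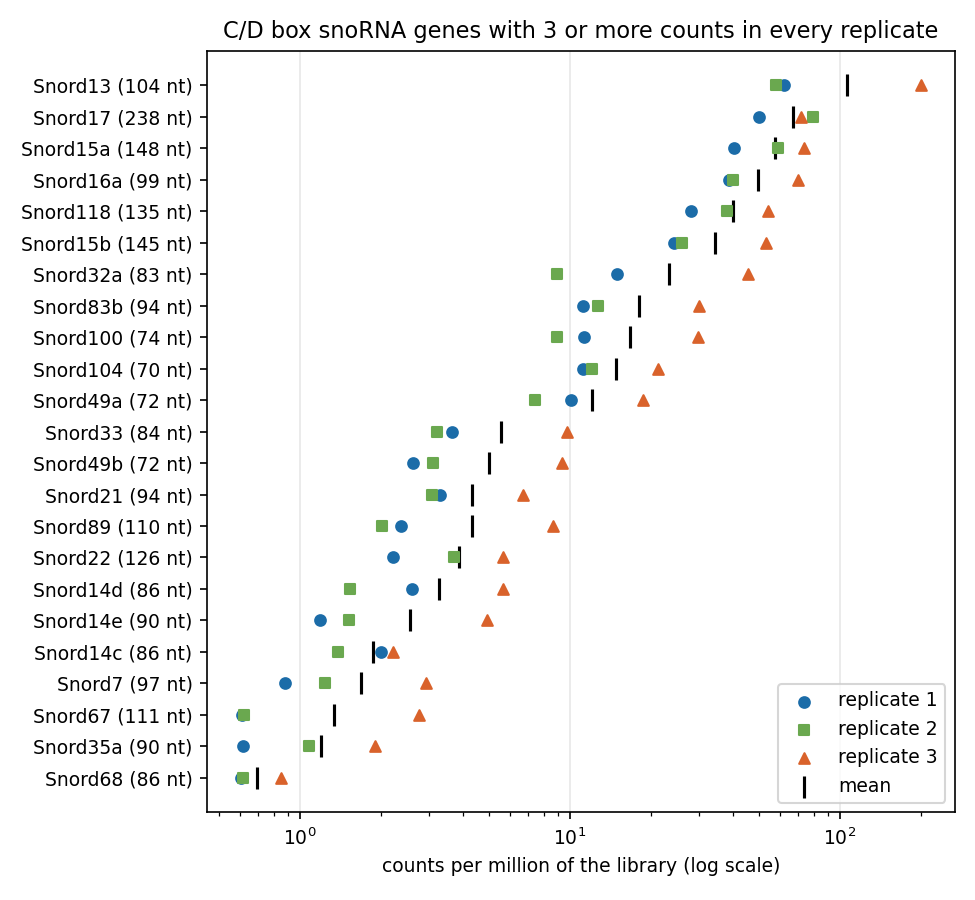
CPM (log scale) of the 23 C/D box snoRNA genes with at least 3 counts in every replicate, 1 symbol per replicate, with the mean as a black bar and the annotated length beside each name. Triangles for replicate 3 lie farthest right in 22 of the 23 rows, and Snord13 spans 57.8 to 199 CPM.

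Members that act in processing or special modification of the ribosomal precursor formed a group of 7, and 6 of them were detected. They are Snord13, Snord118, Snord22 and 4 copies of Snord14, and their summed level was 98.1, 104 and 272 CPM. Snord118 (U8), needed for maturation of the large-subunit rRNAs, had 320, 246 and 312 counts (mean 40.0 ± 13.1 CPM, SD, n = 3). Snord22 (U22), needed for 18S rRNA and located in the noncoding gene Snhg1, had 25.28, 24.07 and 32.78 estimated counts (mean 3.87 ± 1.73 CPM, SD, n = 3). It is the one member that this annotation places in Snhg1. U14 is needed for the cleavages that yield 18S rRNA, and its copies lie in different hosts. Snord14c, Snord14d and Snord14e, in Hspa8, had means of 1.86 ± 0.432, 3.26 ± 2.15 and 2.55 ± 2.07 CPM (SD, n = 3), ranges that overlapped. Snord14c and Snord14d share 97.7% of aligned positions, and their counts were not whole, so the split between them is uncertain. Snord14a, in Rps13, had 0 counts in every library and shares 77.4% to 82.6% of aligned positions with the Hspa8 copies. Rps13 stood at 67.1 ± 3.34 CPM and Hspa8 at 1356 ± 252 CPM (SD, n = 3), and an Rps13 exon overlaps Snord14a. The part of host level or overlap in its 0 counts was not tested. The U3 genes, the best known processing snoRNAs, are named Rnu3 in this annotation and so fall outside the rule. Of these, each of the 4 Rnu3b genes has 1 record listed with identical counts (3113, 3443 and 3090 CPM), as near-identical copies would be, well above Snord13.

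Members with no host gene on their strand were Snord13, Snord118 and Snord104, and all 3 were detected. They held 101, 108 and 274 CPM, that is 161 ± 98.1 of the 480 CPM of all members (SD, n = 3). Of the 96 members inside a host, 20 were detected, 15 of 57 in protein-coding hosts and 5 of 39 in noncoding ones. The noncoding hosts include the 17 Snord116 copies, all at 0 counts. Host and member levels were loosely related. Across the 96 members, Spearman's rho between mean log2(CPM + 0.5) of member and host was 0.36 and Pearson's r 0.30, a description over genes that share 54 hosts and the same libraries. Outside the imprinted cluster rho was 0.21 (n = 77), and among the 20 detected members it was 0.18. At hosts of at least 500 CPM, 12 of 25 members were detected and 13 were not. Detection was rarer at lower hosts: median host level was 683 CPM for the 20 detected members and 90.7 CPM for the 76 undetected ones. Outside the imprinted cluster the undetected members had a median host level of 131 CPM (n = 57). The part of host level in detection was not tested.

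**Figure D2:**
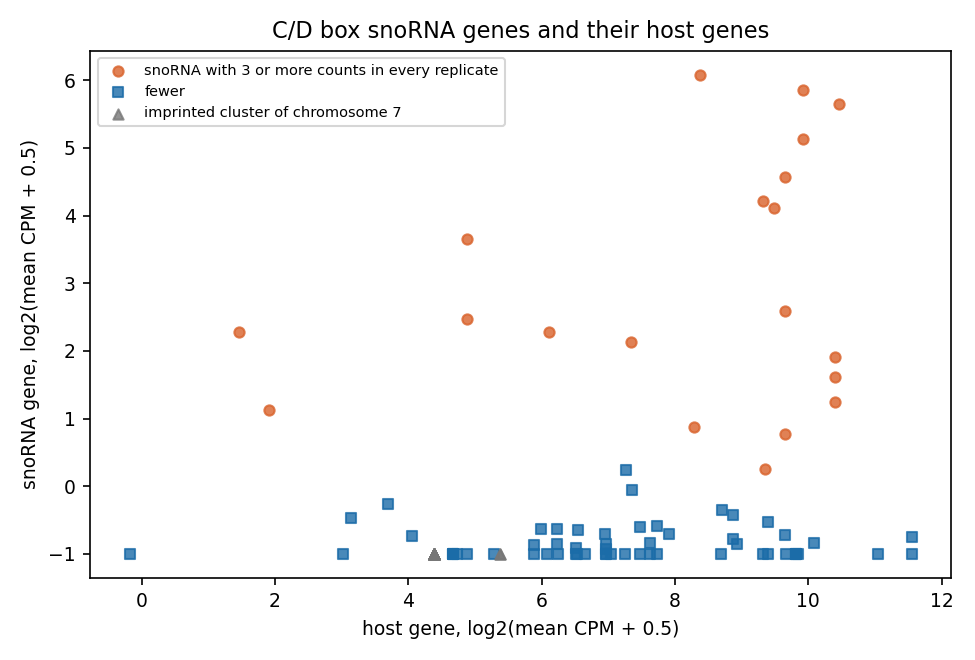
Mean level of each of the 96 hosted C/D box snoRNA genes against that of its host gene, both as log2(CPM + 0.5). Squares along the bottom are members with fewer than 3 counts in some replicate, and they extend across the whole range of host levels, up to Rack1 at 2994 CPM.

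Members assigned to the same host gene differed in level. Hosts were assigned by gene, so the members of a set may come from different transcripts of it. In 2410006H16Rik, a noncoding host at 28.9 ± 7.94 CPM (SD, n = 3), Snord49a had 115, 48 and 108 counts and Snord49b had 30, 20 and 54. Snord65, with the same length of 72 nt and both box motifs, had 0 counts in every library. Against a floor of 3 counts per library, Snord49a was at least 38.3-fold, 16-fold and 36-fold higher than Snord65 in replicates 1, 2 and 3. Snord49a was also 3.83-fold, 2.4-fold and 2-fold higher than Snord49b. Both orders held in every replicate, and length does not differ within this set. GC content does differ, at 48.6%, 44.4% and 40.3% in Snord49a, Snord49b and Snord65, and its part was not tested.

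Rpl13a encodes a ribosomal protein, and its intronic snoRNAs U32a, U33, U34 and U35a have been studied in the response to lipid stress. The host stood at 802 ± 117 CPM (SD, n = 3). Snord32a had 171, 58 and 265 counts, and Snord33, of nearly the same length (84 against 83 nt), had 41.78, 20.86 and 56.14. Snord32a was therefore 4.09-fold, 2.78-fold and 4.72-fold higher in replicates 1, 2 and 3. These folds are uncertain, because an Rpl13a exon overlaps Snord33, with counts that were not whole, and none overlaps Snord32a. Snord35a, at 90 nt the longest of the 4, had 7, 7 and 11 counts. Snord34, at 70 nt the shortest, had 0, 1 and 1. Length thus did not order this set, since the longest member had fewer counts than Snord32a and Snord33.

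Other sets from 1 host were alike or unlike in the same way. In Rps3, the counts of Snord15a were 1.67, 2.27 and 1.37 times those of Snord15b in replicates 1, 2 and 3. An Rps3 exon overlaps Snord15b but not Snord15a, so these ratios are uncertain. In Rpl3 (640 ± 143 CPM, SD, n = 3), Snord83b had 128, 82 and 174 counts, while Snord43 had 0, although its record is longer (108 against 94 nt). The Snord43 record is the one typed as a miRNA and holds no C box motif in its first 20 bases. In the growth arrest gene Gas5, a noncoding host at 124 ± 15.6 CPM (SD, n = 3), none of 4 records (Snord47, Snord78 and Snord80 with its overlapping second record) was detected, and their total was under 1 count in each library. Nop56, itself a core snoRNP protein, stood at 470 ± 52.9 CPM (SD, n = 3). Its Snord57 had 0.98, 0 and 0.98 counts and its Snord110 had 1, 3 and 1. Snord82 in Ncl, the nucleolin gene (919 ± 142 CPM, SD, n = 3), had 0. Among members singled out after their values were seen, Snord37 in Eef2 (2114 CPM) and Snord95 in Rack1 (2994 CPM) had 0 counts beneath the 2 highest hosts. The 4 records in Gas5, Snord57 and Snord95 are overlapped by an exon of their host, so their low or 0 counts are uncertain.

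Longer members were detected more often. Of 42 members of 60 to 79 nt, 4 were detected (9.52%). The share was 27.8% (5 of 18) at 80 to 89 nt, 23.3% (7 of 30) at 90 to 109 nt and 75% (6 of 8) at 110 to 149 nt, and the 1 longer member was detected. At 110 to 149 nt, 30 of 37 Snora genes (81.1%) were detected, a share near that of the C/D members of the same length. Annotated length ran from 70 to 238 nt among detected members (median 94) and from 64 to 111 nt among the others (median 79.5). Across all 99 members, length and mean log2(CPM + 0.5) had a Pearson r of 0.54 and a Spearman rho of 0.29. Over the 80 members outside the imprinted cluster these were 0.59 and 0.54, and over the 23 detected members 0.45 and 0.30. Among the 15 detected members under 100 nt the same values were -0.17 and -0.19, so within the detected short members longer ones were not higher. The 4 detected members below 80 nt were Snord104, Snord100, Snord49a and Snord49b. GC content, which moved with detection, had a median of 50% in detected members and 43.4% in the others. The parts of length and GC content in detection were not tested.

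**Figure D3:**
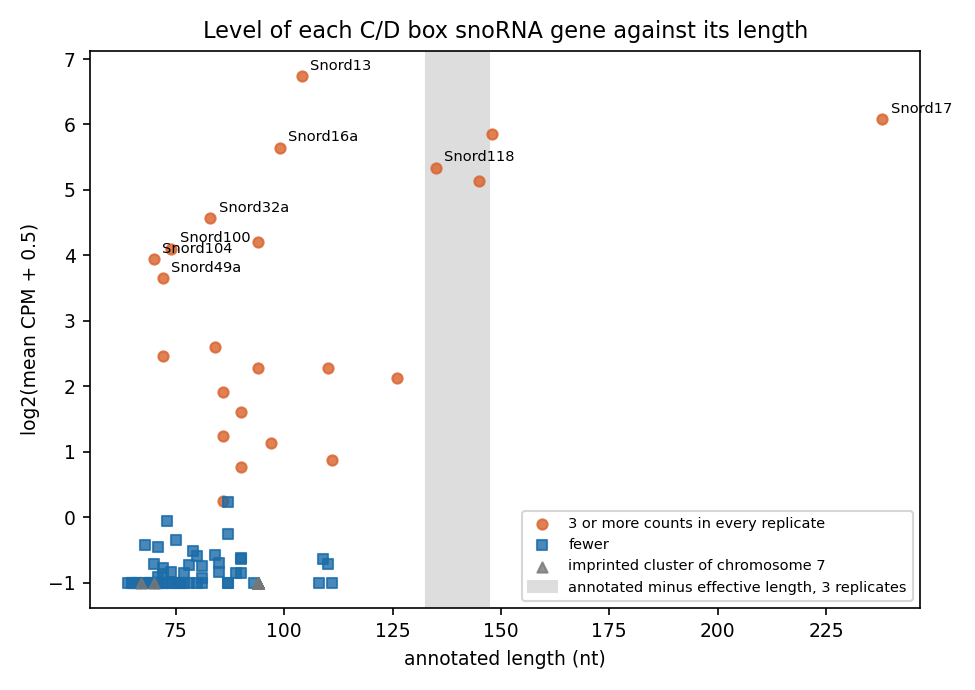
Mean level of each of the 99 C/D box snoRNA genes, as log2(mean CPM + 0.5), against annotated length, with undetected members at the bottom. The grey band marks annotated minus effective length for long genes in the 3 libraries (133 to 147 nt), and all but a few members lie to its left.

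**Figure D4:**
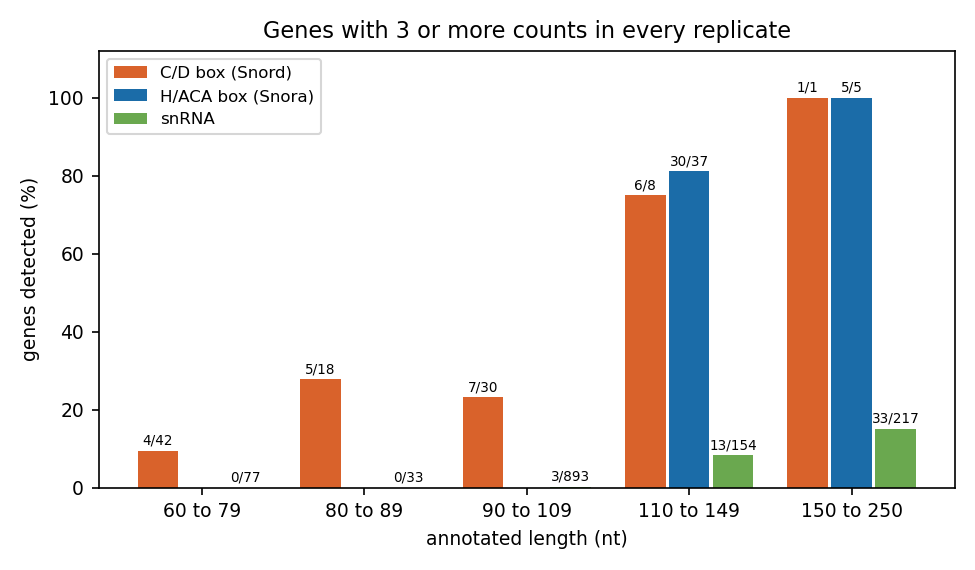
Percent of C/D box, H/ACA box and snRNA genes detected (at least 3 counts in every replicate), by annotated length, with the number detected over the number of genes above each bar. C/D box genes go from 9.52% at 60 to 79 nt to 75% at 110 to 149 nt, and no H/ACA box gene is shorter than 121 nt.

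The deposited length-scaled values (TPM) did not follow the counts for these short genes. For long genes the deposited effective length was 137, 147 and 133 nt below the annotated length in replicates 1, 2 and 3, more than most members measure. Effective length was therefore listed as 0 for 59, 66 and 47 of the 99 members, which held 18.7%, 13.9% and 11.2% of the Snord counts, and a TPM of 0 was given to these in the same replicate. Snord100, Snord104 and Snord49a had an effective length of 0 in every library and a TPM of 0 in spite of 48 to 172.82 counts. Snord33 had a TPM of 0 in replicates 1 and 2 and of 2455 in replicate 3, where its effective length was 1.2 nt. Snord13, with effective lengths of 3.17, 2.06 and 4.39 nt, had TPMs of 8245, 9561 and 13837, so its replicate 3 was 1.45 times replicate 2 in TPM but 3.45 times in CPM. Levels in this report are therefore CPM.

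The imprinted cluster of chromosome 7 gave no counts for any of its 19 members. This region is expressed from the paternal copy, mainly in neurons, and loss of the Snord116 copies is linked to Prader-Willi syndrome. The annotation has 17 Snord116 copies of 94 nt, of which 14 are identical in sequence, and the single genes Snord64 and Snord107. Their hosts did have counts: the noncoding Snhg14, host of the Snord116 copies, stood at 20.3 ± 4.51 CPM and Gm38393, a record typed as protein coding that holds Snord64 and Snord107, at 40.9 ± 4.38 CPM (SD, n = 3). By counting alone, 0 counts leave each gene anywhere up to 0.263, 0.464 and 0.518 CPM in the 3 libraries. That limit takes no account of short length or of reads shared by the 14 identical copies. Of the 30 members of 90 to 109 nt, 17 were these copies, so outside them 7 of the other 13 were detected. No record named Snord112, Snord113, Snord114, Snord115 or Snord3 was among the 99.

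The spread between replicates was tested gene by gene with edgeR's goodness-of-fit test, which asks whether a gene varies more than genes of like abundance. Of 17 members with enough counts for the test, 9 varied at a Benjamini-Hochberg adjusted p under 0.05 (52.9%), against 232 of 12577 genes overall (1.84%). Replicate 3 was highest in all 9, and 110 of the 12577 genes (0.875%) were called with replicate 3 highest. The smallest adjusted p-values by edgeR were those of Snord32a (4.901e-09), Snord13 (4.484e-08), Snord100 (8.914e-05), Snord89 (0.0007255) and Snord83b (0.001217). Snord89, within Gm15832, had 27, 13 and 50 counts. The others called were Snord49b, Snord15b, Snord33 and Snord49a, with adjusted p from 0.004338 to 0.04658. The largest adjusted p was that of Snord17 (0.742), and 16 of the 17 members passed at an unadjusted p under 0.05, as did 879 of the 12577 genes (6.99%). Of Snora genes 9 of 31 were called and of snRNA genes 19 of 39, so the C/D members were not alone in this.

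These calls rested on replicate 3. In the 17 tested members, log2 CPM in replicate 3 minus the mean of replicates 1 and 2 had a median of 1.10 and ran from 0.19 (Snord17) to 1.98 (Snord32a), above 0 in 17 of 17. The same median was 0.86 in Snora genes (n = 31), 0.85 in snRNA genes (n = 39), 0.78 in all 189 tested genes under 300 nt and -0.17 over all 12577. TMM and DESeq2 scaling moved the median of all genes from -0.17 to -0.01 and 0.01 and that of the members to 1.27 and 1.28. Replicate 2 minus replicate 1 had a median of 0.05 in the members. Without replicate 3, 0 of 19 tested members were called, against 0.683% of all genes tested. Without replicate 1 there were 4 of 16 (0.717% of all genes) and without replicate 2 there were 2 of 19 (0.451%). After a correction of each library for gene length, 0 of the 17 members were called, against 169 of 12577 genes (1.34%), and the members' median difference was 0.24. The curve of this correction was fitted on genes that include these members, and few tested genes are as short. Part of the fall was therefore built in, and it does not show what length contributed. Annotated minus effective length was lowest in replicate 3 (133 nt), and its part in the calls was not tested.

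**Figure D5:**
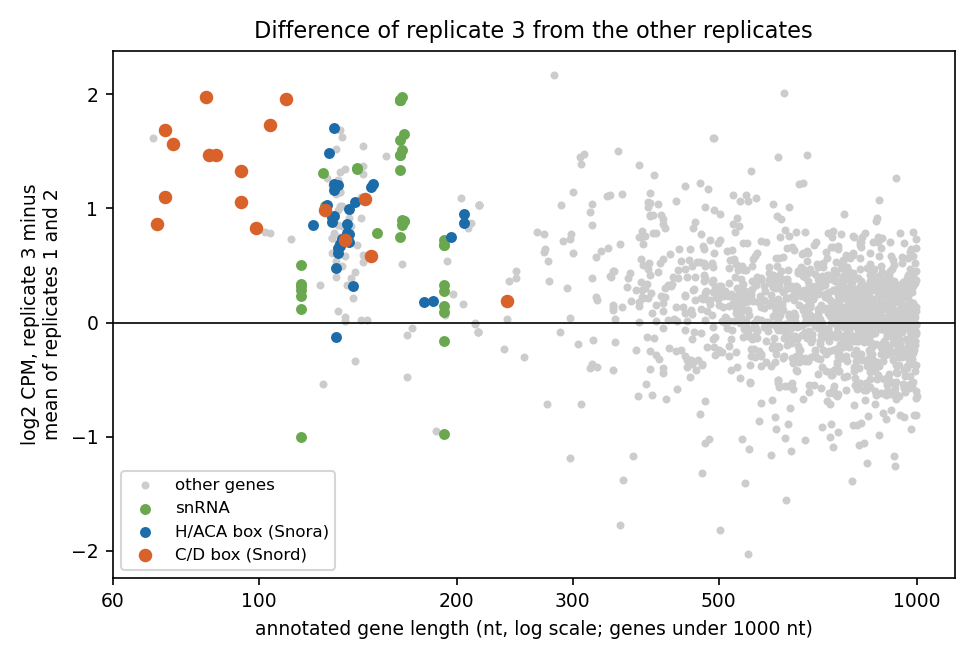
Difference in log2 CPM between replicate 3 and the mean of replicates 1 and 2 against annotated length (log scale) for tested genes under 1000 nt. The 17 C/D box snoRNA genes all lie above 0 (median 1.10), among H/ACA box and snRNA genes that are mostly above 0 as well.

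The sequences were searched for the C and D box motifs, for which this class is named. The contrast with other classes was therefore largely set by the choice by name and is no independent support for it. TGATGA was present in the first 20 bases of 70 of 99 members (70.7%) and CTGA in the last 20 of 97 (98%), read on the RNA strand alone. Both were present in 68 members (68.7%), in 0 of 40 Snora transcripts and in 0 of 1383 snRNA transcripts. Of all 7054 annotated transcripts of 50 to 200 nt outside the members, 244 held both (3.46%). These 7054 include the Snora and snRNA transcripts, and C/D box snoRNAs under other names were not taken out. Both were present in 17 of 23 detected members (73.9%) and 51 of 76 others (67.1%). The letters TGATGA occurred only farther into the sequence in 5 members, Snord118 among them.

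Pairing with 18S rRNA was looked for after the counts had been seen, against the sequence of Rn18s-rs5, an 18S-related record of 1849 nt in the RefSeq annotation. A run of at least 10 Watson-Crick pairs just upstream of a CTGA, with a short gap allowed, was present in 21 of 99 members (21.2%). It was present in 0 of 40 Snora transcripts and in 62 of the 7054 transcripts outside the members (0.879%), which include the Snora ones. Of the 23 detected members 4 held such a run, namely Snord83b with 10 bases and the 3 Hspa8 copies of Snord14 with 14 each. In Snord14c and Snord14d, printed above, the run starts at base 65 and ends beside the D box in capitals. Snord14a, at 0 counts, held the same length of run, and the longest, of 16 bases, were in Snord57 and Snord45c, neither of them detected. A match describes the letters alone. Pairing with rRNA is a trait of the class chosen by name, so the contrast with other transcripts is no independent support.

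Position in the host was similar for detected and undetected members. Of the 99, 95 lay within an intron of the host. Outside the imprinted cluster the distance from the snoRNA to the next exon had a median of 84 nt (36 to 3973, n = 77), and 50 members lay 60 to 120 nt upstream of it. The median was 84 nt for the 20 detected members with a host and 89 nt for the 57 undetected ones. The farthest of the detected members was Snord17 at 3954 nt, and of the undetected ones outside the cluster it was Snord71 at 3973 nt.

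Genes for the proteins that build and mature C/D particles had counts in every library. Of 26 genes listed, 25 matched the annotation, and all 25 were tested for spread between replicates. By edgeR's goodness-of-fit test 0 were called, where 1.84% of all genes were, and 0 passed at an unadjusted p under 0.05, where 6.99% did; in a list of this size both are near the background. The smallest unadjusted p was 0.05719, for Rrp9. Of the core proteins, Nop56 had 470 ± 52.9, Nop58 211 ± 11.9, Snu13 164 ± 14.3 and the methyltransferase Fbl 98.4 ± 1.34 CPM (SD, n = 3). Per kilobase of effective length the order changed, with Nop56 at 416, Snu13 at 228, Nop58 at 164 and Fbl at 101 CPM. Among assembly factors, the ATPases Ruvbl2 and Ruvbl1 had 117 ± 9.71 and 58.8 ± 5.73 CPM (SD, n = 3), and Pih1d1 had 10.6 ± 1.74 CPM (SD, n = 3). Of the genes for capping and transport, the export receptor Xpo1 had 672 ± 49.9 CPM and the cap methyltransferase Tgs1 76.2 ± 3.34 CPM (SD, n = 3). In the U3 particle, Imp4 had 76.1 ± 4.66 and Imp3 29.2 ± 5.16 CPM (SD, n = 3). For the release of intronic snoRNAs, the intron-binding helicase Aqr had 179 ± 14.2 and the debranching enzyme Dbr1 21.3 ± 1.19 CPM (SD, n = 3).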

How the data were processed

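RNA-seq of the E14 line was measured in 3 samples, grouped and numbered by their titles. Per the submitters' processing notes, the tools of the series include STAR and RSEM and the build mm10; versions, annotation release and strand setting are not given in the sources used here. Per the file headers, the authors deposited an estimated count (expected count), length, effective length and TPM per gene. Gene names, types and coordinates came from GENCODE vM21 (GRCm38): 55141 of 55487 IDs matched, and the 346 unmatched held 0.0316% of counts. CPM was computed as the estimated count over the library total (11420425, 6467405 and 5787357). Rounded counts were tested with edgeR 4.0.16 in R 4.3.3 (filterByExpr, TMM, trended dispersion, intercept-only design, goodness of fit, Benjamini-Hochberg adjustment over 12577 genes), with DESeq2 1.42.0 size factors as an alternative. On simulated replicates the test recovered 7 of 50 genes changed 2-fold, 45 at 4-fold and 50 each at 8-fold and 16-fold, with 0 false calls among 12789 genes. The simulation gave every gene the same dispersion and no difference between libraries by gene length. It therefore does not show how many false calls arise where libraries differ by length, as replicate 3 did here. Other steps used Python 3.11.15, pandas 2.3.3 and Biopython 1.88. A host is the same-strand gene of another name that contains the member, with named genes taken before Gm records. Members and lists were chosen with earlier results of these data known. Named members were the 10 highest by CPM, those varying between replicates, the processing and imprinted groups, those in 6 chosen hosts (Gas5, Snhg1, Rpl13a, Nop56, Ncl, Hspa8) and the 5 highest with effective length of 0 in some replicate; any other was chosen after its values were seen. The listed assembly factor Nopchap1 was unmatched. The sequence of Snord13 is not reported here.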

Additional observations from a re-analysis of the deposited data

How the results depend on the processing

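No paired analysis was possible because the RNA-seq samples form a single group. The 6 results were recomputed under 43 alternatives, 41 planned and 2 added after seeing the data. Only the correlation with hosts and the difference of replicate 3 have a sign that could reverse, and neither did. The number of detected members, 23, was 12 among the 58 members that no exon of another gene overlaps, since fewer members were counted, and from 23 to 25 with a replicate left out. By other thresholds it was 16 (10 counts in every replicate), 19 (CPM of 1), 29 (3 counts in any replicate) and 30 (1 count in every replicate). Summed CPM ran from 352 to 556 with a replicate left out, and its other alternatives moved it by less than the SD. The share in the 10 highest members, 89.5%, became 93.8% by deposited TPM and 85.9% per base of length, and was 88.7% to 90.1% with a replicate left out. Spearman's rho of members and hosts, 0.36, became 0.18 among detected members and 0.39 with host CPM per kilobase, and was 0.33 to 0.37 with a replicate left out. The number of varying members, 9, became 0 after the length correction and was 0 to 4 with a replicate left out. The median difference of replicate 3, 1.10, became 1.27 by TMM, 1.28 by DESeq2 size factors and 0.24 after the length correction, and was 1.14 to 1.24 without replicate 2 or 1. The length correction was fitted on genes that include the members, so part of its effect on them was built in. Where no cause is named it was not tested. Depth limits the low end, since members under 3 counts cannot be ordered.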
